A study of Mus musculus with 6 samples.

Results

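The regions described here are the sites of open chromatin in and around 29 genes of cholesterol synthesis, sterol sensing and lipid transport, in astrocytes of the mouse primary visual cortex (V1). A site was counted to a gene when its centre, placed on a peak summit, lay in the gene body or within 20 kb of it in the GENCODE M21 annotation of mm10. This gave 354 sites of 160874 in the series, near 29 of 21951 protein-coding genes, counted by gene identifier. Open chromatin was mapped by ATAC-seq, which marks DNA that a transposase can reach. *GR* fl/fl mice, whose glucocorticoid receptor (GR) gene carries recombination sites, were injected between P0 and P1 with a viral vector. In GR-KO animals this was an AAV2/5 in which the GfaABC1D promoter, active in astrocytes, drives Cre, linked by T2A to EGFP-KASH and followed by 4x6T. GR-con animals received the same construct with ΔCre, an inactive recombinase, so both groups share the floxed allele, the virus and the nuclear-envelope GFP. V1 was taken at P21, 50000 DRAQ5+/GFP+ events were sorted per library, and each of the 3 libraries per condition pooled 3 to 4 animals.

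Cholesterol in the brain is made locally, since lipoproteins of the blood do not cross the blood-brain barrier, and astrocytes are a main source of it. Acetyl-CoA is turned into mevalonate and farnesyl diphosphate, then into squalene and, through lanosterol, into cholesterol. SREBP transcription factors, which are released from the endoplasmic reticulum when sterols are low, bind sterol regulatory elements in the genes of this pathway, often beside a CCAAT box bound by NF-Y. Astrocytes export the product on particles that hold apolipoprotein E.

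The promoter sequences searched for these elements are RefSeq promoters of GRCm38.p6, from 250 bases before the start to 50 after it, and 24 of the 29 genes were matched by symbol. *Fdps*, *Fdft1*, *Sqle*, *Abcg1* and *Npc1* were not matched. The promoter of *Hmgcs1*, which encodes the synthase that makes HMG-CoA, is shown because it was the only matched member promoter with a sterol regulatory element (SRE, TCACNCCAC, sought on both strands). It lies at chr13:119690101-119690400 on the plus strand, and capitals mark the SRE and 4 NF-Y boxes (ATTGG or its reverse complement CCAAT).
*Hmgcs1* promoter: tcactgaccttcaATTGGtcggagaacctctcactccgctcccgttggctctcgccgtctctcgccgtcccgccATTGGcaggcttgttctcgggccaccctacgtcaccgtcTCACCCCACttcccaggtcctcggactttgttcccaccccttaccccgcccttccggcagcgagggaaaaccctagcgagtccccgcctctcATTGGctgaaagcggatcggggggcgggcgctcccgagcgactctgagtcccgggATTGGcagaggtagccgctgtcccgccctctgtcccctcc

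The SRE lies 137 to 129 bases before the start, and it was found in 1.24% of all 32851 promoters of this length. The *Pmvk* and *Idi1* windows below lie outside the sites of open chromatin described later, and the promoter sites of *Pmvk* (strongest at chr3:89458881-89459281) held no NF-Y box. Short windows of 31 bases around the NF-Y box nearest upstream of the start are shown for the 5 matched genes of the mevalonate arm, with the box in capitals, read along each gene's strand.
*Hmgcs1*, chr13:119690293-119690323: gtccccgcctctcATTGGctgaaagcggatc
*Mvk*, chr5:114444242-114444272: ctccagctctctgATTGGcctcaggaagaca
*Pmvk*, chr3:89454392-89454422: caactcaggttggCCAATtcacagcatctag
*Mvd*, chr8:122443432-122443462: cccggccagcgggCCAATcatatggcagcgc
*Idi1*, chr13:8885579-8885609: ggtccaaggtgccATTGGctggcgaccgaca

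An NF-Y box was found in 21 of 34 matched member promoters, which belong to 20 of the 24 matched genes, against 37.4% of all 32851 promoters. The matched genes without this match were *Scap*, *Apoe*, *Abca1* and *Lrp1*. No member promoter held the GR element searched (GNACA and TGTNC with 3 bases between, 0 of 34), which was found in 0.475% of all promoters. These are matches of letters in a fixed window and were not tested as binding sites.

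The deposited peak lists held 179462 to 198929 peaks per library, and 62.0% of all sites had a summit in all 6 libraries. The lists give no read counts, so sequencing depth is unknown here and a longer list may come from a deeper library. All 10 astrocyte markers examined had a promoter site in all 6 libraries, with a summed fold of 73.1 to 78.2 in GR-con and of 82.4 to 86.7 in GR-KO libraries, and 6 of their 243 sites were called by the −log10 p test below, 3 lower and 3 higher in GR-KO (2.47% in all, where 0.839% of all sites were lower and 0.764% higher). Of 101 sites at neuronal markers, 1 was called by that test, as higher in GR-KO, and 1 by fold, and 0 sites of the other lists were called by either. No promoter site was found at the neuronal marker *Slc17a7*, the oligodendrocyte markers *Mog*, *Mag* and *Mobp*, the microglial markers *Csf1r*, *Cx3cr1* and *Aif1*, or the endothelial markers *Cldn5* and *Pecam1*. The other markers gave summed promoter folds of 11.96 to 23.7 in GR-con and 17.1 to 19.5 in GR-KO for 5 of 6 neuronal genes, of 29.1 to 36.0 and 30.9 to 33.8 for 3 of 6 oligodendrocyte-lineage genes, of 11.2 to 16.1 and 14.1 to 19.7 for 2 of 5 microglial genes, and of 3.21 to 4.06 and 3.55 to 5.68 for 1 of 3 endothelial genes. These sums run over lists of unequal length. The median promoter fold was 7.17 for the astrocyte markers with a promoter site, 3.95 for neuronal, 15.0 for oligodendrocyte-lineage, 7.84 for microglial and 4.16 for endothelial ones. Summed over all sites of a gene and averaged per gene, the fold in the 6 libraries was 91.5 to 99.4 at astrocyte, 107 to 113 at neuronal, 59.9 to 64.5 at oligodendrocyte-lineage, 89.7 to 93.4 at microglial and 73.0 to 80.9 at endothelial markers, so by these measures the astrocyte markers did not stand above all other lists. The part of other cells in the results below was not tested. At the deleted gene *Nr3c1*, 2 of 17 sites were called, in opposite directions. The site at chr18:39428181-39428581 showed folds of 17.4, 17.4 and 14.3 in GR-con libraries, compared with 6.68, 4.73 and 6.36 in GR-KO (adjusted p = 0.0241, limma on ranks of fold). The site at chr18:39460821-39461221 had no peak in any GR-con library and folds of 6.24, 4.76 and 6.39 in the GR-KO libraries (adjusted p = 0.0392, limma on ranks of fold). When any 1 library was left out, 0 sites of the whole series were called higher by fold and 0 to 3 lower. By ranks of −log10 p the adjusted p at these 2 *Nr3c1* sites was 1.42e-05 and 0.0073 (limma).

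Every one of the 29 genes had open chromatin in these nuclei. The rule gave 391, 405 and 403 peaks in GR-con 1, 2 and 3 and 395 to 434 in the GR-KO libraries, of which 58 to 63 and 56 to 62 lay at promoters. The 354 sites, which extend 200 bp on either side of their centre, comprised 46 promoter sites, centred within 500 bp of a transcription start site (TSS) of the gene, 33 sites at the promoter of another gene in the window and 275 other elements. By position, 121 lay in introns, 20 in untranslated regions, 11 in coding exons, 85 upstream and 117 downstream. *Lrp1*, a receptor that takes up apolipoprotein E, had 32 sites, *Srebf2* 31 and *Abca1* 28, whereas *Insig2* had 4 and *Sqle* and *Nsdhl* 5 each. A member was the nearest coding gene of 220 sites, and the rest lay nearer to the start of another gene.

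Most of these sites held a peak in both conditions. A summit lay in all 6 libraries at 213 of the 354 sites (60.2%), against 62.0% of all sites. Among the promoter sites it was 35 of 46 (76.1%), against 80.6% of 21573 promoter sites in the series, and among the other elements 152 of 275 (55.3%), against 59.1% of sites outside promoters. At 5 sites all GR-con libraries and no GR-KO library had a peak (1.41%, against 1.15% of all sites), and 0 showed the opposite pattern (against 0.622%). These counts depended on the settings, with 5 to 9 and 2 to 6 sites when 1 library was left out, and the first was 2 with peaks assigned by interval. With 1 library left out, a condition has fewer libraries that must hold or lack a peak, so the rule is looser. Shares of all sites under that looser rule are not given here. By role, the share in all 6 libraries was 50.0% of 60 sites in the mevalonate arm, 54.9% of 102 between squalene and cholesterol, 69.9% of 73 in sterol sensing and 63.9% of 119 in transport.

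The promoters of these genes were open in both conditions. Each gene's strongest promoter site is described by its fold, the height of the summit relative to the local background. A site with a peak in all 6 libraries was found for 28 of the 29 genes (96.6%), against 61.1% of 21842 protein-coding genes, counted by symbol and with a coding transcript, and 94.3% of the 14159 of these that had a promoter site, and the median of the members' mean folds was 16.9 against 16.1 for coding genes with a promoter site. *Lss*, which cyclizes squalene epoxide to lanosterol, had the highest mean, with 25.1, 23.7 and 23.0 in GR-con and 26.3, 23.0 and 25.1 in GR-KO libraries. *Dhcr7*, the reductase of the last step, had 23.3, 23.0 and 23.7 in GR-con and 26.7, 23.7 and 22.9 in GR-KO, at a site that lies nearer to the start of *Nadsyn1*. *Fdps*, farnesyl diphosphate synthase, had 24.7, 22.2 and 26.3 in GR-con and 22.2, 21.4 and 21.2 in GR-KO. The conditions overlapped at *Lss* and *Dhcr7*. At *Fdps* every GR-con fold lay above every GR-KO fold, but the ranks within lists overlapped, and the difference by fold was −0.34 ± 0.16 (SE, adjusted p = 0.429, limma). The lowest folds were those of 3 transport genes. *Abcg1*, a sterol exporter, had no promoter peak in GR-con 1 and folds of 4.89 and 6.09 in GR-con 2 and 3, with 7.22, 4.92 and 3.55 in GR-KO. *Lrp1* had 5.00, 5.31 and 4.40 in GR-con and 4.82, 5.49 and 5.51 in GR-KO. *Apoe* had 7.69, 7.72 and 6.55 in GR-con and 8.94, 8.04 and 7.59 in GR-KO libraries. Among coding genes with a promoter site, these mean folds stood at percentiles 8.81, 10.5 and 18.2, and those of *Lss*, *Dhcr7* and *Fdps* at 88.2, 86.2 and 82.6.

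**Figure D1:**
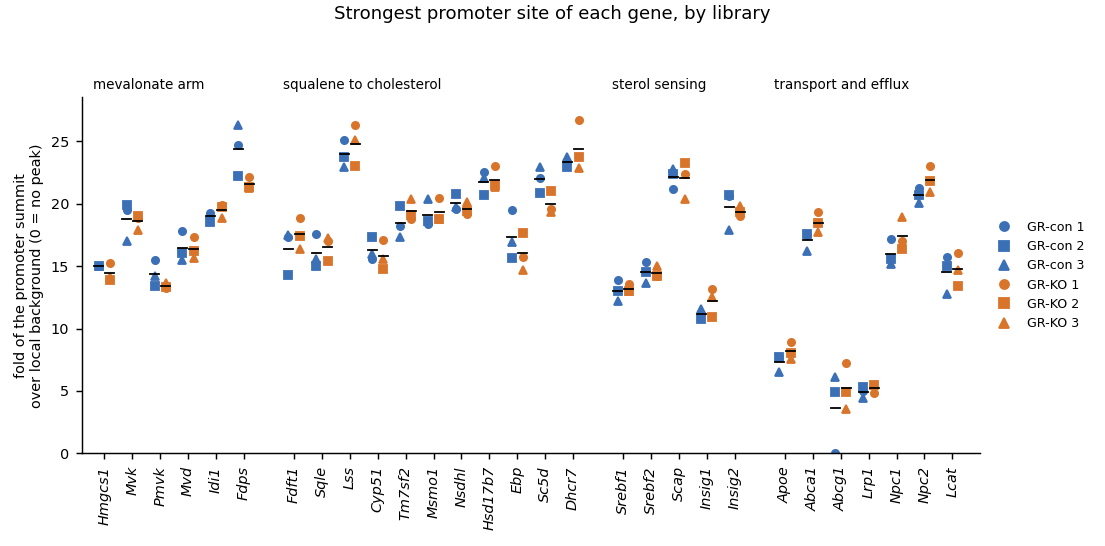
Fold of the summit over the local background (y axis, linear, 0 for no peak) at the strongest promoter site of each of the 29 genes (x axis, grouped by role), for 3 GR-con libraries (blue) and 3 GR-KO libraries (orange); short lines are means of 3 libraries. *Lss* stands highest with a mean of 24.4 over all libraries and *Abcg1* lowest with 4.45, and the conditions lie close together at most genes.

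GR-KO and GR-con libraries were compared by rank, because fold and −log10 p have no scale shared between lists. In each library all 160874 sites were ranked by the fold, or by the −log10 p, of the summit inside them, with sites lacking a peak lowest. The ranks were turned into normal scores, which have a standard deviation of about 1 in each library, and compared with limma, two-sided, with Benjamini-Hochberg adjustment over all sites. By fold, 0 of the 354 sites passed an adjusted p of 0.05 in either direction, where 0.127% of all sites were lower and 0.0615% higher in GR-KO. At an unadjusted p under 0.05 there were 10 lower (2.82%, against 6.02% of all sites) and 12 higher (3.39%, against 6.11%). By −log10 p, which also grows with the coverage of the summit, 2 sites were called lower (0.565%, against 0.839%) and 2 higher (0.565%, against 0.764%). At an unadjusted p under 0.05 there were 10 lower (2.82%, against 6.37%) and 22 higher (6.21%, against 6.98%). These shares are near or below those of the series. An exact permutation test of 3 libraries against 3 cannot give a p under 0.1 for a single site. The p-values measure the spread between pooled libraries, and a different share of nuclei with a site open cannot be told apart from a different accessibility in each nucleus.

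The score differences of the members were small. The median difference, GR-KO minus GR-con, was 0.0508 by fold, against 0.0165 over all sites, and 0.0383 by −log10 p, against 0.0057 over all sites. By fold the members' median was 0.0162 with a peak required in all 6 libraries and 0.0208 to 0.0432 when 1 library was left out. Ranks of the 3 GR-KO libraries lay all above those of the 3 GR-con libraries at 44 sites by fold (12.4%, against 11.6% of all sites) and 48 by −log10 p (13.6%, against 11.0%). They lay all below at 20 sites by fold (5.65%, against 7.58%) and 16 by −log10 p (4.52%, against 8.46%). Of the 46 promoter sites, 0 were called by either measure; at an unadjusted p under 0.05 there were 0 by fold (against 6.02% of all sites lower and 6.11% higher), and 2 lower (4.35%, against 6.37%) and 4 higher (8.70%, against 6.98%) by −log10 p.

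**Figure D2:**
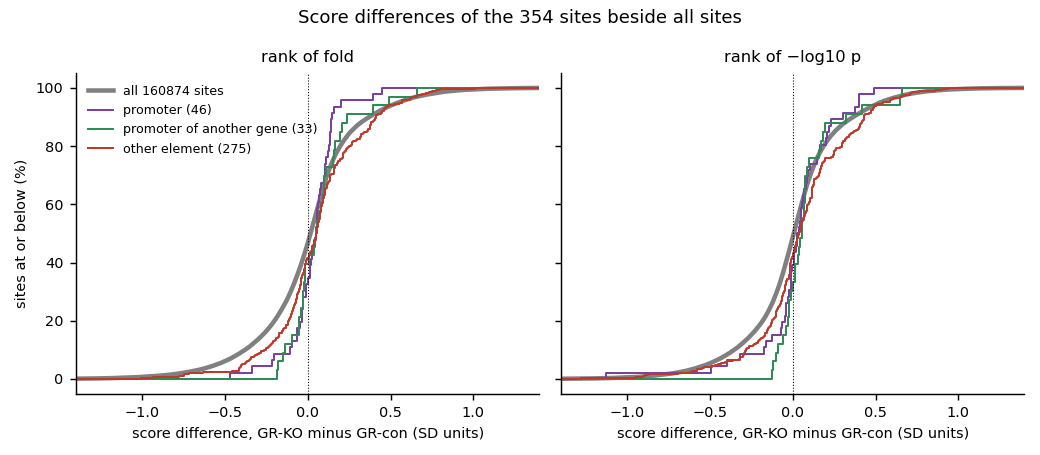
Cumulative share of sites (y axis, percent) at or below each score difference, GR-KO minus GR-con (x axis, in standard deviations of the normal score), by rank of fold (left) and of −log10 p (right), for all 160874 sites (grey) and for the 46 promoter sites, 33 sites at promoters of other genes and 275 other elements of the members. All 4 curves rise around 0, and the members' medians of 0.0508 by fold and 0.0383 by −log10 p lie slightly to the right of those of all sites.

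In the mevalonate arm, which holds 60 sites of *Hmgcs1*, *Mvk*, *Pmvk*, *Mvd*, *Idi1* and *Fdps*, 0 sites were called in either direction by either measure. At an unadjusted p under 0.05 there were 1 lower (1.67%, against 6.37% of all sites) and 2 higher (3.33%, against 6.98%) by −log10 p, and 2 lower (3.33%, against 6.02%) and 1 higher (1.67%, against 6.11%) by fold. The *Hmgcs1* promoter site, which covers the SRE printed above, had folds of 15.0, 15.0 and 15.0 in GR-con, compared with 15.3, 13.9 and 14.1 in GR-KO. Its −log10 p was 560.2, 579 and 652 in GR-con and 644, 579 and 551 in GR-KO, so the groups overlapped, with a score difference of −0.18 ± 0.19 (SE, adjusted p = 0.740, limma). The strongest element of the group outside promoters lay downstream of *Pmvk*, phosphomevalonate kinase, 25767 bp from its TSS (chr3:89485138-89485538), with folds of 26.9, 24.6 and 26.7 in GR-con and 27.3, 27.3 and 25.8 in GR-KO. At a weak element upstream of *Mvk*, mevalonate kinase, nearer to *Mmab* (chr5:114429249-114429649), folds of 3.47, 3.39 and 3.21 in GR-con stood against 2.11 in GR-KO 1 and no peak in GR-KO 2 and 3. The groups did not overlap there, and the difference by fold was −0.78 ± 0.24 (SE, adjusted p = 0.246, limma).

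Between squalene and cholesterol, 1 of 102 sites was called, as lower by −log10 p (0.980%, against 0.839% of all sites), in an intron of *Fdft1*, which encodes squalene synthase, the first enzyme committed to sterols (chr14:63171611-63172011, 5982 bp downstream of a TSS). Its fold was 3.12, 3.72 and 3.21 in GR-con 1, 2 and 3, and its −log10 p 12.04, 19.3 and 12.9. No GR-KO library had a peak over it, and the nearest GR-KO summits were 959, 945 and 3854 bp away. It was lower in GR-KO by −log10 p (score difference −1.28 ± 0.30 SE, adjusted p = 0.0327, limma) and did not pass by fold (−0.94 ± 0.22 SE, adjusted p = 0.138). With peaks assigned by interval the differences were −0.585 by −log10 p (adjusted p = 0.519, limma) and −0.3486 by fold (adjusted p = 0.626). The 201 bp around its centre, chr14:63171711-63171911 on the plus strand, held none of the 5 motifs searched.
*Fdft1* intron: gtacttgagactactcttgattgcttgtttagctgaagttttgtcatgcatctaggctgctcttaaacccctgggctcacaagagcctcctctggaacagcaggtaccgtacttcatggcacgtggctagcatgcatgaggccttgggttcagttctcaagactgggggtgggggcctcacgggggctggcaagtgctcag

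At an unadjusted p under 0.05, 4 of the 102 sites were lower (3.92%, against 6.37% of all sites) and 3 higher (2.94%, against 6.98%) by −log10 p, and 3 lower (2.94%, against 6.02%) and 2 higher (1.96%, against 6.11%) by fold. Of the other sites with a peak in GR-con libraries only, 2 belong to this group. Another intronic *Fdft1* element, 27518 bp downstream of a TSS, had folds of 2.47, 3.05 and 3.16 in GR-con (adjusted p = 0.183 by −log10 p, limma). An intronic element of *Msmo1*, the methylsterol monooxygenase, had folds of 2.80, 2.12 and 2.97 in GR-con (adjusted p = 0.165 by −log10 p, limma). All of these are weak peaks, below the median fold of their lists, which was 4.40 to 4.89 in GR-con. At the promoter of *Tm7sf2*, a sterol reductase, the −log10 p was 255, 330.3 and 245 in GR-con and 344, 356 and 359 in GR-KO, with no overlap between groups, and the difference was 0.23 ± 0.07 (SE, adjusted p = 0.114, limma). The promoter of *Sqle*, squalene epoxidase, overlapped, with folds of 17.6, 15.0 and 15.6 in GR-con and 17.0, 15.4 and 17.2 in GR-KO. An element downstream of *Sqle*, 17529 bp from its TSS within *Washc5*, had folds of 3.20, 3.95 and 3.72 in GR-con and 4.40, 4.88 and 5.94 in GR-KO (difference by fold 0.42 ± 0.15 SE, adjusted p = 0.326, limma). The strongest element of the group outside promoters, 23315 bp downstream of the TSS of the desaturase gene *Sc5d*, had folds of 19.3, 22.2 and 21.5 in GR-con and 18.6, 19.9 and 18.04 in GR-KO (adjusted p = 0.453, limma).

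The genes of sterol sensing encode the SREBP factors (*Srebf1*, *Srebf2*), their escort SCAP and the INSIG proteins that hold SCAP in the endoplasmic reticulum when sterols are plentiful. Of their 73 sites, 1 was called higher in GR-KO by −log10 p (1.37%, against 0.764% of all sites), in an intron of *Srebf2* (chr15:82192669-82193069, 45688 bp from the gene's 5′ end and 2103 bp before an internal TSS). Its −log10 p was 93.9, 99.8 and 71.4 in GR-con and 144, 143 and 126 in GR-KO, and its fold 10.3, 10.9 and 8.88 in GR-con and 12.5, 12.2 and 12.01 in GR-KO. Both measures were higher in every GR-KO than in every GR-con library. Among all sites of a library, the percentile of its −log10 p was 79.8 ± 2.77 (SD, n = 3) in GR-con, compared with 87.1 ± 0.701 (SD, n = 3) for GR-KO. The score difference was 0.29 ± 0.06 (SE, adjusted p = 0.0223, limma) by −log10 p and 0.22 ± 0.07 (SE, adjusted p = 0.225) by fold. The 201 bp around its centre, chr15:82192769-82192969, held an NF-Y box, in capitals.
*Srebf2* intron: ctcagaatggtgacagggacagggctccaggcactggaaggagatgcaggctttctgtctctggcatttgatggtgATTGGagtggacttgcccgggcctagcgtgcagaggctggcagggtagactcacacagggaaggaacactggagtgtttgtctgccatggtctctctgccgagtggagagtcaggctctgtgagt

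The *Srebf2* promoter, in contrast, overlapped between conditions, with folds of 15.3, 14.5 and 13.6 in GR-con and 14.2, 14.2 and 15.0 in GR-KO. At *Srebf1*, a site 2284 bp upstream of the nearest coding TSS and 307 bp upstream of the gene's 5′ end (chr11:60222688-60223088) had a −log10 p of 55.7, 39.9 and 41.7 in GR-con and 68.6, 98.96 and 62.0 in GR-KO. The groups did not overlap, and the difference was 0.29 ± 0.08 (SE), which missed the threshold (adjusted p = 0.0794, limma). Its sequence, on the plus strand of chr11:60222788-60222988, is shown because it held an SRE. An NF-Y box lay in it as well, and capitals mark both.
*Srebf1* upstream: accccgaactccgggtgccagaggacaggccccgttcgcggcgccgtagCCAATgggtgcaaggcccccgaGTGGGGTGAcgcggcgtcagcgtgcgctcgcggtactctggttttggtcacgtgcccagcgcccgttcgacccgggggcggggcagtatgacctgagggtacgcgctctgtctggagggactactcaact

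No *Insig1* site was called. The promoter had a −log10 p of 403, 389 and 393 in GR-con and 514, 425 and 449 in GR-KO (adjusted p = 0.260, limma), while its fold overlapped, with 11.1, 10.7 and 11.6 in GR-con and 13.2, 10.9 and 12.5 in GR-KO. The element 10676 bp upstream had folds of 4.83, 4.50 and 5.20 in GR-con and 5.59, 8.02 and 7.72 in GR-KO, with no overlap (difference by −log10 p 0.40 ± 0.14 SE, adjusted p = 0.194, limma). An element 15838 bp upstream, chosen after its values were seen, had folds of 15.6, 17.3 and 13.7 in GR-con and 13.8, 14.2 and 11.8 in GR-KO, which overlapped (adjusted p = 0.421 by fold, limma). The strongest element of this group outside promoters, 10909 bp upstream of the 5′ end of *Srebf1* and 12886 bp upstream of its nearest coding TSS, within *Tom1l2*, had folds of 18.7, 19.5 and 16.5 in GR-con and 16.1, 16.8 and 15.6 in GR-KO (adjusted p = 0.355, limma). At an unadjusted p under 0.05, 9 of the 73 sites were higher by −log10 p (12.3%, against 6.98% of all sites) and 2 lower (2.74%, against 6.37%). By fold 5 were higher (6.85%, against 6.11%) and 2 lower (2.74%, against 6.02%).

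The transport and efflux genes, from apolipoprotein E and the exporters ABCA1 and ABCG1 to the endosomal sterol carriers NPC1 and NPC2 and the cholesterol-esterifying enzyme LCAT, held 119 sites, of which 1 was called lower and 1 higher by −log10 p (0.840% each, against 0.839% and 0.764% of all sites). At an unadjusted p under 0.05, 3 were lower (2.52%, against 6.37%) and 8 higher (6.72%, against 6.98%) by −log10 p, and 3 lower (2.52%, against 6.02%) and 4 higher (3.36%, against 6.11%) by fold. The lower site lay in an intron of *Abca1*, the exporter that loads cholesterol onto apolipoproteins (chr4:53125324-53125724, 34371 bp downstream of the TSS). Its fold was 11.6, 10.1 and 8.96 in GR-con and 6.39, 6.78 and 6.69 in GR-KO, or 10.2 ± 1.35 and 6.62 ± 0.208 (SD, n = 3). Its −log10 p was 80.6, 66.0 and 63.3 in GR-con and 31.4, 31.6 and 34.0 in GR-KO. The groups did not overlap by either measure, with a difference of −0.32 ± 0.08 (SE, adjusted p = 0.0441, limma) by −log10 p and −0.34 ± 0.08 (SE, adjusted p = 0.130) by fold. None of the 5 motifs was found in the 201 bp of chr4:53125424-53125624.
*Abca1* intron: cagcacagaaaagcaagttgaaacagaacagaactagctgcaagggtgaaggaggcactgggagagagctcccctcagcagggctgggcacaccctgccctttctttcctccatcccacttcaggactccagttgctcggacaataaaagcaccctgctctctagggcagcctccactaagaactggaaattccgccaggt

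The higher site lay 593 bp upstream of *Lcat*, inside *Slc12a4* (chr8:105943775-105944175). Its −log10 p was 109.5, 109.6 and 117 in GR-con and 156, 168 and 149 in GR-KO, and its fold 6.74, 6.47 and 6.61 in GR-con and 7.95, 8.30 and 7.43 in GR-KO. The groups did not overlap by either measure, and the difference was 0.24 ± 0.06 (SE, adjusted p = 0.0378, limma) by −log10 p and 0.19 ± 0.08 (SE, adjusted p = 0.400) by fold. In all 6 libraries this summit lay in the same deposited peak interval as that of the *Lcat* promoter site, and with peaks assigned by interval the difference by −log10 p was 0.0953 (adjusted p = 0.797, limma). The promoter site, 189 bp before the TSS, overlapped with folds of 15.7, 15.0 and 12.8 in GR-con and 16.1, 13.4 and 14.7 in GR-KO. The 201 bp of chr8:105943875-105944075 held none of the 5 motifs.
*Lcat* upstream: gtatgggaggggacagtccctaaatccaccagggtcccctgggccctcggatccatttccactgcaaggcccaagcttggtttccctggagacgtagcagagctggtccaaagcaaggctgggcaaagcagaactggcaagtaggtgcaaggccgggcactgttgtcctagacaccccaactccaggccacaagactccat

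**Figure D3:**
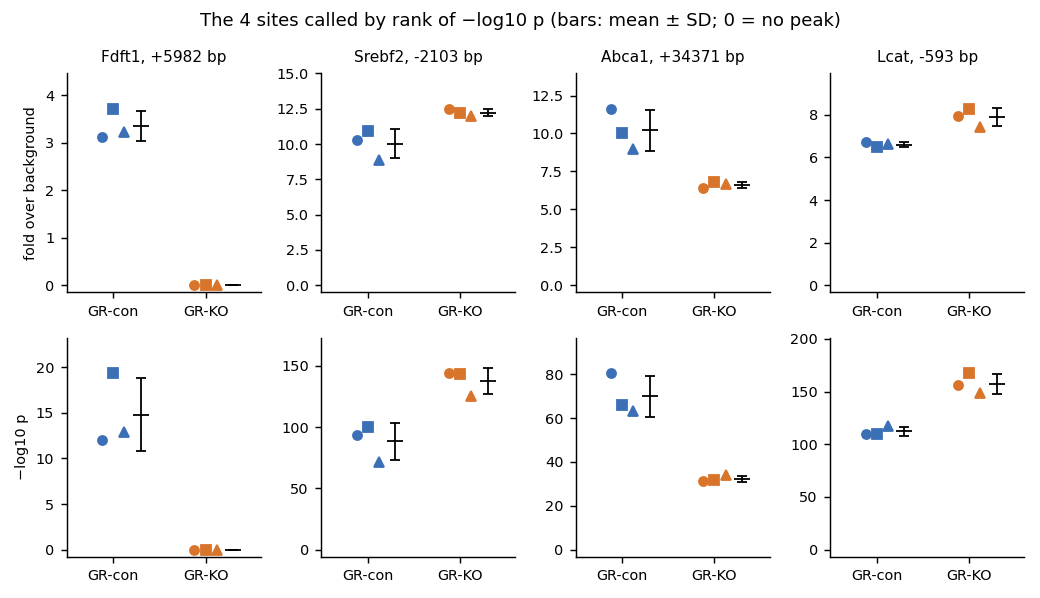
Fold over the local background (top, linear) and −log10 p (bottom) of the 4 sites called by rank of −log10 p, named by gene and distance to the nearest TSS of the gene, in 3 GR-con (blue) and 3 GR-KO (orange) libraries; bars are mean ± SD and 0 means no peak. The conditions do not overlap in any panel, and GR-KO lies lower at *Fdft1* and *Abca1* and higher at *Srebf2* and *Lcat*.

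Each of these 4 calls was lost when any library was left out. The adjusted p by −log10 p then ranged from 0.0842 to 0.147 at *Fdft1*, from 0.0822 to 0.135 at *Srebf2*, from 0.110 to 0.219 at *Abca1* and from 0.0947 to 0.168 at *Lcat* (limma, 6 fits each), with the direction kept in all of them. Assignment by interval also ended the calls at *Srebf2* (0.31, adjusted p = 0.131, limma) and *Abca1* (−0.32, adjusted p = 0.143), as at *Fdft1* and *Lcat* above.

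The *Abca1* promoter itself was not called. Its fold was 17.5, 17.6 and 16.2 in GR-con and 19.3, 18.4 and 17.7 in GR-KO, with no overlap (adjusted p = 0.427, limma), while its −log10 p of 436, 433 and 407 against 436, 462 and 389 overlapped. Of the 28 *Abca1* sites, 16 had a peak in all 6 libraries. A site at the promoter of *Nipsnap3b*, beyond the 3′ end of *Abca1*, had a −log10 p of 293, 334 and 318 in GR-con and 406, 376 and 365 in GR-KO (adjusted p = 0.164, limma). The *Apoe* promoter had a −log10 p of 253, 243 and 215 in GR-con and 316, 303 and 248 in GR-KO, which overlapped as values but not as ranks within lists (difference 0.16 ± 0.06 SE, adjusted p = 0.240, limma). Of the 7 *Apoe* sites, 5 had a peak in all 6 libraries.

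*Npc1*, whose product moves cholesterol out of late endosomes, held the remaining sites found in GR-con libraries only. An intronic site 13946 bp from the TSS had folds of 2.62, 3.73 and 4.67 in GR-con (adjusted p = 0.163 by −log10 p, limma). A site 376 bp after the TSS had folds of 2.49, 2.39 and 2.07 in GR-con (adjusted p = 0.0701 by −log10 p, limma). At the latter site every GR-KO library had a peak interval reaching over it, with its summit 420 to 424 bp away, so the absence there is that of a summit. The main *Npc1* promoter site had folds of 17.2, 15.5 and 15.2 in GR-con and 17.0, 16.4 and 18.9 in GR-KO. Near *Npc2*, a strong element 11561 bp upstream within *Ltbp2* had folds of 25.9, 25.2 and 26.4 in GR-con and 24.4, 24.2 and 24.2 in GR-KO (adjusted p = 0.536, limma). A weak element in the same gene, 13210 bp upstream, had a fold of 2.05 in GR-con 1, no peak in GR-con 2 and 3, and folds of 2.66, 3.05 and 3.37 in GR-KO (adjusted p = 0.257 by fold, limma).

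**Figure D4:**
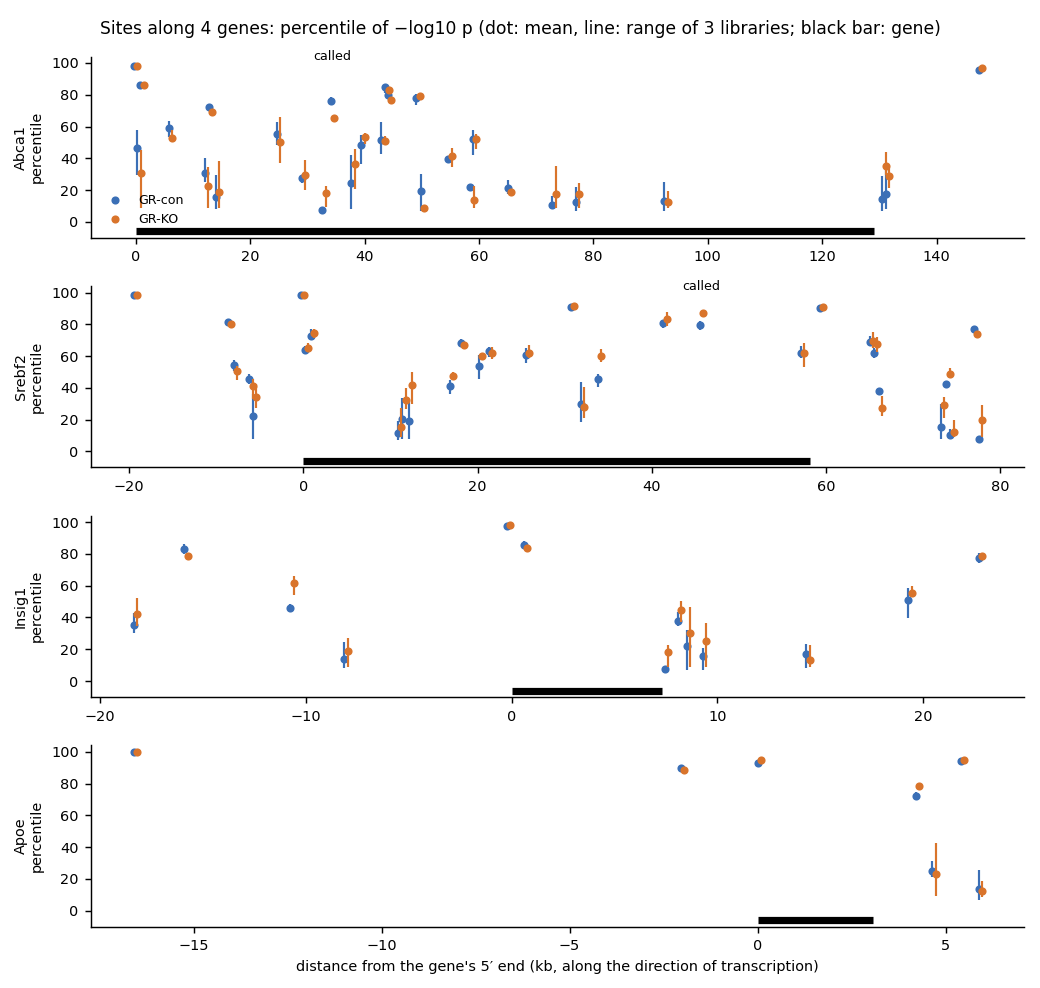
Sites of *Abca1*, *Srebf2*, *Insig1* and *Apoe* by distance from the gene's 5′ end (x axis, kb, along transcription) and percentile of their −log10 p among all sites of the same library (y axis; sites with no peak lie near the bottom); dots are means of 3 libraries, lines their range, GR-con (blue) and GR-KO (orange) shifted slightly apart, and the black bar is the gene. The 2 called sites stand out as separated pairs at 34371 bp in *Abca1* and 45688 bp in *Srebf2*, while the promoters lie near the top, where GR-KO stands slightly above GR-con without overlap at *Apoe* and *Insig1*, neither of them called, and the conditions overlap at *Abca1* and *Srebf2*.

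The same window around 20 other genes of the pathway, among them *Soat1*, *Acat2* and *Cyp46a1*, gave 197 sites. By fold 0 were called in either direction, with 8 lower (4.06%, against 6.02% of all sites) and 9 higher (4.57%, against 6.11%) at an unadjusted p under 0.05. By −log10 p 0 were called lower and 2 higher (1.02%, against 0.764%), with 9 lower (4.57%, against 6.37%) and 17 higher (8.63%, against 6.98%) at an unadjusted p under 0.05. The higher sites were one inside *Soat1*, which esterifies cholesterol, 916 bp before an internal TSS, with a −log10 p of 90.7, 123 and 78.4 in GR-con and 155, 152 and 161 in GR-KO (adjusted p = 0.0170, limma), and a site in the window of *Acat2* nearer to *Acat3* (adjusted p = 0.0425, limma).

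Over the whole width of the sites, 31 of 46 member promoter sites held an NF-Y box (67.4%), against 36.1% of 21573 promoter sites, at a median GC content of 61.97% against 62.59%. Of the 275 other elements, 102 held it (37.1%), against 42.9% of sites outside promoters. The SRE was found in 1 promoter site, that of *Hmgcs1*, and in 10 sites among the other elements, counting repeats of the motif only once per site (3.64%, against 1.56%). The GR element was found in 0 of 46 promoter sites (against 0.426%) and in 1 of 275 other elements (0.364%, against 1.11%). The LXR element (a direct repeat of AGGTCA with 4 bases between) was found in 0 of both, against 0.0144% of sites outside promoters, and the NFI element (TTGGC and GCCAA with 5 bases between, which an NF-Y box can overlap) in 1, in an intron of *Abca1*, against 0.0926%. The element with the GR motif lay in an intron of *Scap*, 1007 bp after a TSS, and is shown because it was the only one with that motif. This element held an SRE as well. It had folds of 3.21, 4.89 and 3.04 in GR-con, 2.89 in GR-KO 1 and no peak in GR-KO 2 and 3, with no overlap (difference by fold −0.75 ± 0.31 SE, adjusted p = 0.388, limma). Capitals mark the GR element and the SRE in chr9:110345106-110345306.
*Scap* intron: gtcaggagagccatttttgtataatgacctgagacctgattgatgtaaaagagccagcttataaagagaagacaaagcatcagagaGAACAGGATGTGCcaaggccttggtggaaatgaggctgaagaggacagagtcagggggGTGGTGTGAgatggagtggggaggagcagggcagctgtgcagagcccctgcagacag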

How the data were processed

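ATAC-seq peak lists of 3 GR-con and 3 GR-KO libraries were used. Per the study's methods, the authors called peaks library by library with a p threshold of 0.01 in ENCODE's pipeline for ATAC-seq (version 2.2.0), and mm10 is the build in the submitters' notes. For each peak the authors deposited a score, the fold enrichment over the local background (a ratio), −log10 of the p-value and of the q-value, and the summit position. No peak ended beyond its chromosome in GRCm38 (0 of 1116429). The authors' count test on reads could not be repeated on lists without counts.

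Summits were extended by 200 bp on either side, and starting from the highest within-list rank of −log10 p, any that overlapped a site already taken were dropped (203163 candidates). A site was kept with a summit inside it in at least 2 of 6 libraries. A library's value was that of the summit of highest −log10 p in the site. Summits were used because 44.1 to 51.0% of the peaks in a list share their interval with another summit. Ranks became normal scores, and limma 3.58.1 (R 4.3.3) was fitted to them with a variance trend and no block, using Python 3.11.15 and pysam 0.24.0 for sites and sequences. The fit was checked on simulated scores.

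Sites named with values were those called, the 5 of smallest p in each direction and measure, those where all libraries of one condition and none of the other had a peak, the strongest element of each role, and the 3 highest and lowest promoters with *Hmgcs1*, *Sqle*, *Srebf2*, *Insig1*, *Apoe* and *Abca1*. Sites of other members are named as examples, and some sites of other pathway genes are not reported here. The members, the lists of roles, other pathway genes and markers, and the motifs were chosen with earlier results of these data known. Replicate numbers are shared by both conditions, but deviations of same-numbered libraries correlated by only 0.0295, −0.00501 and 0.0254 by fold and 0.0306, −0.00719 and 0.0256 by −log10 p. This does not settle whether same-numbered libraries were processed together, which the labels do not give. Alternatives were lists of equal length, peaks with a q-value under 0.01 only, assignment by an interval covering more than 200 bp, peaks in at least 3 or in all 6 libraries, no variance trend, a replicate block, leaving out each library, an adjusted p of 0.01, other windows and other definitions of a promoter.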

Additional observations from a re-analysis of the deposited data

How the results depend on the processing

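Depth limits these results in a way that the lists do not show, since they hold no counts, and a site at 0 is only a site with no summit listed. The 0 calls by fold held under every alternative except the fit without a variance trend, which called 2 sites lower. By −log10 p, 2 sites were called lower and 2 higher. Lower calls numbered 0 with peaks assigned by interval, 1 with a peak required in all 6 libraries, 4 without the variance trend, 0 at an adjusted p of 0.01 and 4 within 50 kb. Higher calls numbered 0 by interval, 0 without the trend, 0 at 0.01, 1 in gene bodies and 4 within 50 kb. Leaving out each library gave 0 to 0 lower and 0 to 0 higher. With the replicate block, 0 were called lower and 0 higher by either measure, and the adjusted p by −log10 p was 0.0893 at *Fdft1*, 0.0534 at *Srebf2*, 0.109 at *Abca1* and 0.0951 at *Lcat*. Over all alternatives it ran from 0.0103 to 0.519, 0.00728 to 0.293, 0.0238 to 0.219 and 0.0226 to 0.797 at these sites, each called in 4 of 12 alternatives at *Fdft1* and of 13 at the others. Why the calls changed was not tested.

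Over all sites, calls were 204 lower and 99 higher by fold (445 and 242 by interval, 1073 and 769 without the trend, 234 and 169 in all 6 libraries, 288 and 153 in at least 3, 0 and 0 with the block, 0 to 3 and 0 without 1 library) and 1350 and 1229 by −log10 p (497 and 282 by interval, 1156 and 808 without the trend, 726 and 523 with the block, 175 to 815 and 194 to 385 without 1 library). The median difference by fold, 0.0508, was 0.0162 with a peak in all 6 libraries and 0.0208 to 0.0432 without 1 library. For the median by −log10 p, 0.0383, values under the alternatives are not given here. Sites with a peak in GR-con only, 5, numbered 2 by interval and 5 to 9 without 1 library. Sites with a peak in GR-KO only, 0, numbered 1 with lists of equal length, 1 with q-values under 0.01, 1 within 50 kb and 2 to 6 without 1 library. Without 1 library the rule behind both counts is looser. The 354 sites became 213 with a peak in all 6 libraries, 152 in gene bodies and 542 within 50 kb.

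Among 758 values of named sites under an alternative, 701 kept their direction and side of the threshold, 35 lost and 6 gained a call, and 16, all of sites not called, changed sign. Without 1 library, the differences by −log10 p ranged from −0.3163 to 0.0705 at *Hmgcs1* −221 bp (positive without GR-con 3), −0.0599 to 0.0142 at *Pmvk* 25767 bp (positive without GR-con 3), −0.0520 to 0.1295 at the *Sqle* promoter (negative without GR-con 2 or GR-KO 3), −0.0606 to 0.1963 at the *Dhcr7* promoter (negative without GR-KO 1), −0.0486 to 0.0105 at *Srebf1* −12886 bp (positive without GR-con 1 or GR-KO 1), −0.0670 to 0.0262 at the *Abca1* promoter (positive without GR-KO 1 or 3) and −0.0525 to 0.7026 at the *Abcg1* promoter (negative without GR-con 1). By fold they ranged from −0.0240 to 0.2129 at *Pmvk* 25767 bp (negative without GR-con 2), −0.0064 to 0.1054 at the *Sqle* promoter (negative without GR-con 2), −0.0178 to 0.0370 at the *Srebf2* promoter (negative without GR-KO 3) and −0.0711 to 0.7919 at the *Abcg1* promoter (negative without GR-con 1). At *Npc1* 376 bp, assignment by interval gave 0.0778 by −log10 p and 0.1639 by fold.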
